A study of Homo sapiens with 9 samples.

Results

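A set of 9 enzymes carries out, in order, steps from farnesyl diphosphate through squalene and lanosterol to cholesterol: FDFT1, SQLE, LSS, CYP51A1, MSMO1, NSDHL, HSD17B7, SC5D and DHCR7. They were taken by symbol, among protein-coding genes only, from a gene expression table of MHCC97H cells, a human hepatocellular carcinoma line of high metastatic potential. All 9 were found, each on 1 identifier, among 19970 protein-coding genes and 60683 genes in all. The libraries came from 3 groups of 3: shCont, cells with a control hairpin, and shRPL6-1 and shRPL6-2, each with its own hairpin directed at RPL6, which encodes a protein of the large ribosomal subunit. By the paper's general methods, hairpins were delivered by lentivirus and transduced cells were selected with puromycin. The paper does not describe these steps separately for these libraries or for shCont. Names of the deposited columns begin with NC for shCont and with Si for both other groups. How RPL6 was silenced in these libraries is therefore not settled here, and hairpin follows the sample labels. All libraries came from this single line. Labels give shCont the genotype WT and both other groups RPL6 knockdown. No source used here says that replicates came from separate cultures, so p-values measure library-to-library spread only, and this may be technical.

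Cholesterol is built in the membrane of the endoplasmic reticulum from isoprene units made in the mevalonate pathway. FDFT1 commits these units to sterols, SQLE adds the oxygen that allows the chain to fold, LSS closes the rings, and the later enzymes trim methyl groups and move or remove double bonds. When sterols run low, the transcription factor SREBP-2 is released from the endoplasmic reticulum and raises genes of the pathway together, and liver cells are a main site of this synthesis. In bulk RNA, fewer cells expressing a gene and less RNA per cell cannot be told apart.

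The knockdown itself was large in every library. RPL6 stood at 499.5, 518 and 478 TMM-scaled CPM (counts relative to the scaled library total) in shCont replicates 1, 2 and 3. It stood at 13.6, 12.9 and 15.8 CPM with shRPL6-1 and at 12.3, 11.7 and 21.4 CPM with shRPL6-2. The antisense strands, which pair with the target, come from the antisense rows of the study's oligonucleotide list. They are shown because they define the groups, with their closing TT left out. The seed (bases 2 to 8 from the 5′ end) is in capitals.
shRPL6-1: uUUGCGAAguuuaaccacc
shRPL6-2: uAAUAAGCcacuagccagc
The full target of neither hairpin was found in the longest coding transcript of any of the 9 enzymes. The site matching the shRPL6-1 seed was in 0 of the 9 transcripts, against 4.1% of the 16012 transcripts of tested genes. The shRPL6-2 seed site was in 2 of the 9, CYP51A1 and HSD17B7, against 17% of tested transcripts.

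Libraries held between 13638468 and 16149480 counts. The library of shCont replicate 3 stood apart from its group. In shCont replicates 1 and 2, a gene's deviation from its mean over all libraries fell with the GC content of its transcript (Spearman's rho of -0.53 and -0.51 across genes), whereas in shCont replicate 3 it rose (rho of 0.24). The trend also differed between groups: rho was 0.27, -0.11 and -0.02 in the shRPL6-1 replicates and 0.33, 0.58 and 0.11 in the shRPL6-2 replicates. With transcript length, rho was 0.30, 0.32 and 0.02 in shCont and -0.33, -0.38 and -0.08 with shRPL6-2. Mitochondrial genes took 6.56% to 7.19% of counts in shCont, 4.74% to 5.48% with shRPL6-1 and 4.04% to 5.99% with shRPL6-2. Replicates 2 and 3 of shRPL6-2 were also far apart, with a chi-square per degree of freedom of 57.5, against 66.3 and 66.4 for shCont replicate 3 and its fellow replicates. Results that rest on shCont replicate 3 are given with and without it. Without it, the remaining shCont libraries had rho with GC content of -0.53 and -0.51, against -0.11 to 0.58 in the hairpin libraries. No fit without shCont replicate 3 applied the GC correction used below, so the part of this trend in such fits was not tested. Of 7 hepatocyte markers, none averaged over 1 CPM, their sum ranged from 0.181 to 0.898 CPM, and ALB, the albumin gene, was at 0 in all 9 libraries, so the defining markers of the tissue of origin were at or near 0. The epithelial keratins KRT8 and KRT18 averaged 1358 and 470.5 CPM in shCont, 1841 and 621 CPM with shRPL6-1 and 1824 and 747 CPM with shRPL6-2. Of the other epithelial markers, EPCAM went the other way, averaging 2.50, 1.94 and 1.22 CPM in the 3 groups. CDH1 averaged 1.01, 1.81 and 1.69 CPM. Among markers of other cell types, COL1A1, a fibroblast collagen, averaged 79.6, 59.8 and 62.2 CPM in the 3 groups. PDGFRB, a receptor of fibroblasts and pericytes, went the other way. It rose from 2.94 CPM in shCont to 4.08 CPM with shRPL6-1, with a higher mean still with shRPL6-2. CDH5, an endothelial cadherin, averaged 37.2, 26.4 and 18.3 CPM. The other endothelial markers did not follow it: VWF averaged 1.58, 2.28 and 1.40 CPM, PECAM1 0.477, 0.261 and 0.491 CPM, and KDR was at 0. CD3E was at 0 too. The summed level of the 4 endothelial markers, most of it CDH5, was 30.0 to 49.8, 27.2 to 30.6 and 18.7 to 22.3 CPM in the 3 groups. That of the 6 fibroblast markers, nearly all of it COL1A1, was 73.9 to 98.4, 62.6 to 66.4 and 64.9 to 70.1 CPM. The part of these markers and of the mitochondrial share in the results below was not tested.

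The first question was whether RNA of the enzymes changed when RPL6 was knocked down. MSMO1, SQLE, HSD17B7, NSDHL and FDFT1 fell with both hairpins, to between 22.7% and 72.5% of the shCont mean. LSS, CYP51A1, SC5D and DHCR7 did not pass the test with either hairpin, although their fitted changes were also below 0. With shRPL6-1, 5 of the 9 were called lower and 0 higher, where 4.07% of the 16146 genes tested were called lower and 4.44% higher. With shRPL6-2, the count was again 5 lower and 0 higher, where 14.6% of tested genes were called lower and 13.3% higher. Called lower with both hairpins were 5 of 9 enzymes and 3.41% of tested genes. The test was edgeR's quasi-likelihood F-test over all 9 libraries, with Benjamini-Hochberg adjustment over all tested genes and a threshold of 0.05. The median log2 fold change of the 9 enzymes was -0.71 with shRPL6-1 and -0.74 with shRPL6-2, beside -0.01 and -0.03 over all tested genes. Both comparisons use the same shCont libraries, so they are not independent of each other.

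The counts moved with single libraries. Without shCont replicate 3, 8 enzymes were called lower with shRPL6-1 (all but LSS) and 7 with shRPL6-2 (all but LSS and DHCR7). In that fit 2202 of the 16505 genes tested were called lower with shRPL6-1 and 3565 with shRPL6-2. The shRPL6-1 count was 0 without shCont replicate 2, shRPL6-1 replicate 1 or shRPL6-1 replicate 2. Of all tested genes, 48, 36 and 87 were called lower in these fits. The enzyme count was 1, MSMO1, without shCont replicate 1 or shRPL6-1 replicate 3, and 3 without shRPL6-2 replicate 1. Of all tested genes, 70, 75 and 297 were then called lower. The shRPL6-2 count was 2, SQLE and MSMO1, on removal of shCont replicate 1, shCont replicate 2, shRPL6-2 replicate 1 or shRPL6-2 replicate 3. Of all tested genes, 839, 728, 1141 and 2483 were called lower with shRPL6-2 in these fits. The enzyme count was 3 on removal of shRPL6-2 replicate 2 or of replicates 1 or 3 of shRPL6-1. The gene counts were then 916, 1927 and 1858. Fits with 1 library left out tested between 16427 and 16579 genes. In each of these fits all 9 log2 fold changes remained below 0 with both hairpins. Without the filter on low counts, FDFT1 and NSDHL lost the call with both hairpins and HSD17B7 with shRPL6-2, and the same 3 lost it with shRPL6-2 when only the 6 libraries compared were fitted.

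**Figure D1:**
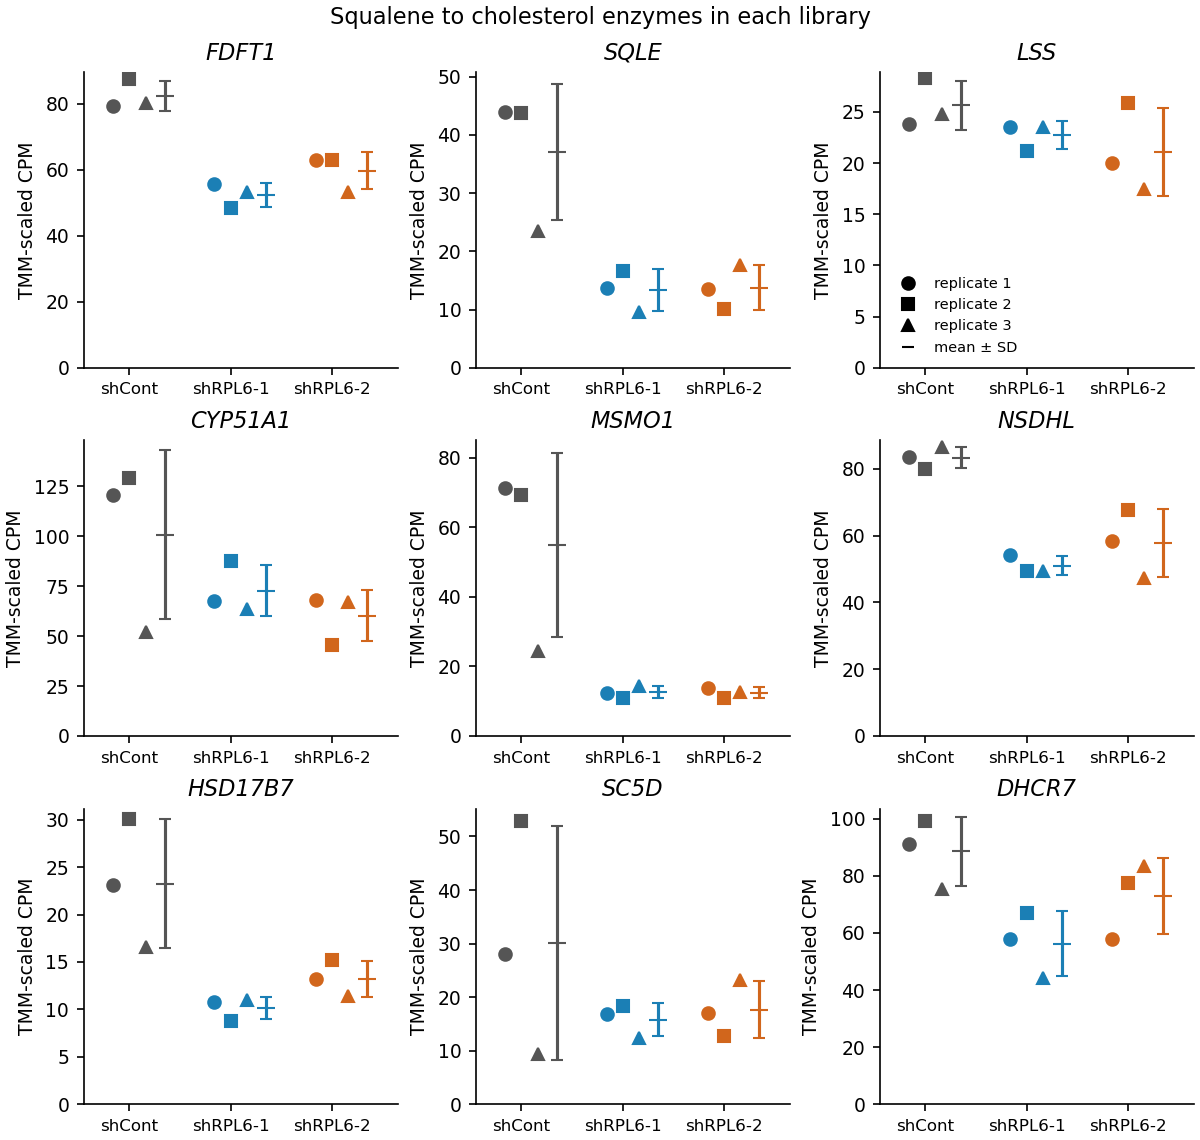
TMM-scaled CPM of each of the 9 enzymes (vertical axes, linear from 0) in the 3 libraries of shCont, shRPL6-1 and shRPL6-2, with the group mean ± SD beside the points. In FDFT1, SQLE, MSMO1, NSDHL and HSD17B7 all 6 hairpin libraries lie below all 3 shCont libraries; shCont replicate 3 (triangle) lies far below replicates 1 and 2 in SC5D, MSMO1 and CYP51A1.

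FDFT1 (squalene synthase, ENSG00000079459, chr8:11795573-11839304 in GRCh38) joins farnesyl diphosphate units into squalene, the first step particular to sterols. Its level was 79.4, 87.6 and 80.2 CPM in the shCont replicates. With shRPL6-1 it was 55.6, 48.5 and 53.3 CPM, and with shRPL6-2 62.9, 63.0 and 53.2 CPM. Every hairpin library lay below every shCont library, and shCont replicate 3 lay between its fellow replicates. The log2 fold change was -0.65 ± 0.14 (SE; n = 3 libraries a group; edgeR adjusted p = 0.0271) with shRPL6-1 and -0.46 ± 0.14 (edgeR adjusted p = 0.0360) with shRPL6-2. Among all tested genes, the libraries of shRPL6-1 all lay below those of shCont in 15.2%, and those of shRPL6-2 in 19.7%. Without this overlap were 7 of the 9 enzymes with shRPL6-1 and 5 with shRPL6-2.

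SQLE (squalene epoxidase, ENSG00000104549, chr8:124998497-125022283) is a rate-limiting enzyme of the steps after squalene. The shCont replicates held 43.9, 43.8 and 23.5 CPM, so replicate 3 was at 53.7% of the mean of the other two. With shRPL6-1 the values were 13.8, 16.7 and 9.58 CPM, and with shRPL6-2 13.6, 10.0 and 17.7 CPM. The lowest shCont library was still above the highest hairpin library. SQLE fell by 1.47 ± 0.30 on the log2 scale with shRPL6-1 (SE, edgeR adjusted p = 0.0217), to 36.0% of the shCont mean. The fall with shRPL6-2 was to 37.1%, a log2 fold change of -1.43 ± 0.31 (edgeR adjusted p = 0.00987). Without shCont replicate 3 the changes were -1.71 ± 0.26 and -1.66 ± 0.27.

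MSMO1 (ENSG00000052802, chr4:165327667-165343164), the oxidase that begins removal of the methyl groups at the fourth carbon of the ring system, had the largest fall of the 9 with either hairpin. Its shCont replicates stood at 71.1, 69.3 and 24.3 CPM. The shRPL6-1 replicates stood at 12.3, 11.0 and 14.5 CPM and the shRPL6-2 replicates at 13.9, 10.9 and 12.5 CPM. The 6 hairpin libraries were close together and all below shCont replicate 3, which itself was at 34.7% of the mean of shCont replicates 1 and 2. The log2 fold change was -2.12 ± 0.35 with shRPL6-1 (SE, edgeR adjusted p = 0.0106) and -2.14 ± 0.35 with shRPL6-2 (edgeR adjusted p = 0.00446), a fall of 4.36-fold and 4.40-fold. Without shCont replicate 3 the log2 fold change was -2.47 ± 0.17 and -2.49 ± 0.17, and with the GC correction it was -1.70 ± 0.24 and -1.55 ± 0.24, each called. Against shCont replicate 3 alone, with no test, the mean of the shRPL6-1 libraries was at 51.7% and that of the shRPL6-2 libraries at 51.2%.

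NSDHL (ENSG00000147383, chrX:152830967-152869729) and HSD17B7 (ENSG00000132196, chr1:162790702-162812817) follow MSMO1 in the same demethylation, as the dehydrogenase that releases the carboxyl group and the reductase that restores the hydroxyl group. NSDHL was at 83.5, 80.1 and 86.4 CPM in shCont, the narrowest spread of the 9 relative to its mean. Its shRPL6-1 libraries held 54.2, 49.3 and 49.4 CPM, and its shRPL6-2 libraries 58.4, 67.7 and 47.3 CPM. The log2 fold change was -0.71 ± 0.16 (SE, edgeR adjusted p = 0.0287) and -0.53 ± 0.16 (edgeR adjusted p = 0.0334). HSD17B7 was at 23.1, 30.1 and 16.6 CPM in shCont. It was at 10.8, 8.79 and 10.9 CPM with shRPL6-1 and at 13.2, 15.2 and 11.4 CPM with shRPL6-2. These groups did not overlap either, but the gap to shCont replicate 3 was small with shRPL6-2. Its log2 fold change was -1.19 ± 0.24 (SE, edgeR adjusted p = 0.0194) with shRPL6-1 and -0.81 ± 0.24 (edgeR adjusted p = 0.0283) with shRPL6-2. Without shCont replicate 3 it was -1.38 ± 0.20 and -1.002 ± 0.20, whereas NSDHL was then at -0.68 ± 0.16 and -0.50 ± 0.16. The pseudogene HSD17B7P2 held at most 3 counts in any library, and adding the counts of near copies to HSD17B7 left both calls in place.

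The 4 enzymes without a call differed in how their libraries spread. LSS (lanosterol synthase, ENSG00000160285, chr21:46188141-46228824) was at 23.8, 28.3 and 24.8 CPM in shCont, at 23.5, 21.2 and 23.5 CPM with shRPL6-1 and at 19.98, 25.9 and 17.5 CPM with shRPL6-2. The groups nearly touched with shRPL6-1 and overlapped with shRPL6-2. Its log2 fold change had a 95% interval of -0.57 to 0.23 with shRPL6-1 (edgeR adjusted p = 0.553) and of -0.68 to 0.12 with shRPL6-2 (edgeR adjusted p = 0.265). DHCR7 (ENSG00000172893, chr11:71428193-71452868), the reductase that makes cholesterol from its immediate precursor, was at 91.2, 99.3 and 75.4 CPM in shCont. With shRPL6-1 it was at 58.0, 66.9 and 44.1 CPM, all below shCont, and with shRPL6-2 at 57.9, 77.6 and 83.6 CPM, which overlapped. The log2 fold change was -0.65 ± 0.20 with shRPL6-1 (SE, edgeR adjusted p = 0.0689) and -0.28 ± 0.20 with shRPL6-2 (edgeR adjusted p = 0.319). Without shCont replicate 3 the shRPL6-1 change of DHCR7 was called, at -0.75 ± 0.21 (edgeR adjusted p = 0.0229).

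CYP51A1 (lanosterol demethylase, a cytochrome P450, ENSG00000001630, chr7:92112153-92134803) and SC5D (sterol desaturase, ENSG00000109929, chr11:121292681-121313410) had the widest shCont spread together with MSMO1. CYP51A1 was at 121, 129 and 52.1 CPM in shCont, at 67.3, 87.4 and 63.6 CPM with shRPL6-1 and at 68.1, 45.4 and 67.2 CPM with shRPL6-2. In shCont replicates 1 and 2 it was above all 6 hairpin libraries, whereas in replicate 3 it was below 5 of them. SC5D was at 28.1, 53.0 and 9.44 CPM in shCont, at 16.8, 18.3 and 12.3 CPM with shRPL6-1 and at 17.0, 12.7 and 23.2 CPM with shRPL6-2. Its shCont replicate 3 was the lowest of all 9 libraries. With every library in the fit, the log2 fold change of CYP51A1 was -0.47 ± 0.31 (SE, edgeR adjusted p = 0.332) and -0.74 ± 0.31 (edgeR adjusted p = 0.0939), and that of SC5D -0.93 ± 0.48 (edgeR adjusted p = 0.218) and -0.77 ± 0.48 (edgeR adjusted p = 0.240). Without shCont replicate 3, CYP51A1 was called lower at -0.78 ± 0.20 (edgeR adjusted p = 0.0199) and -1.05 ± 0.20 (edgeR adjusted p = 0.00324). SC5D was then called lower at -1.36 ± 0.31 (edgeR adjusted p = 0.0123) and -1.19 ± 0.31 (edgeR adjusted p = 0.0126). These values were not corrected for the GC trend, which then differed between shCont and every hairpin library. Without shCont replicate 2, the library in which it was highest, SC5D was at -0.29 ± 0.42 (edgeR adjusted p = 0.741) and -0.11 ± 0.42 (edgeR adjusted p = 0.880), and CYP51A1 at -0.28 ± 0.33 and -0.54 ± 0.33. CYP51A1 has processed pseudogenes, of which CYP51A1P1 held 13 to 41 counts and CYP51A1P2 14 to 57 counts a library, so its level is uncertain by that much; adding their counts changed neither call.

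**Figure D2:**
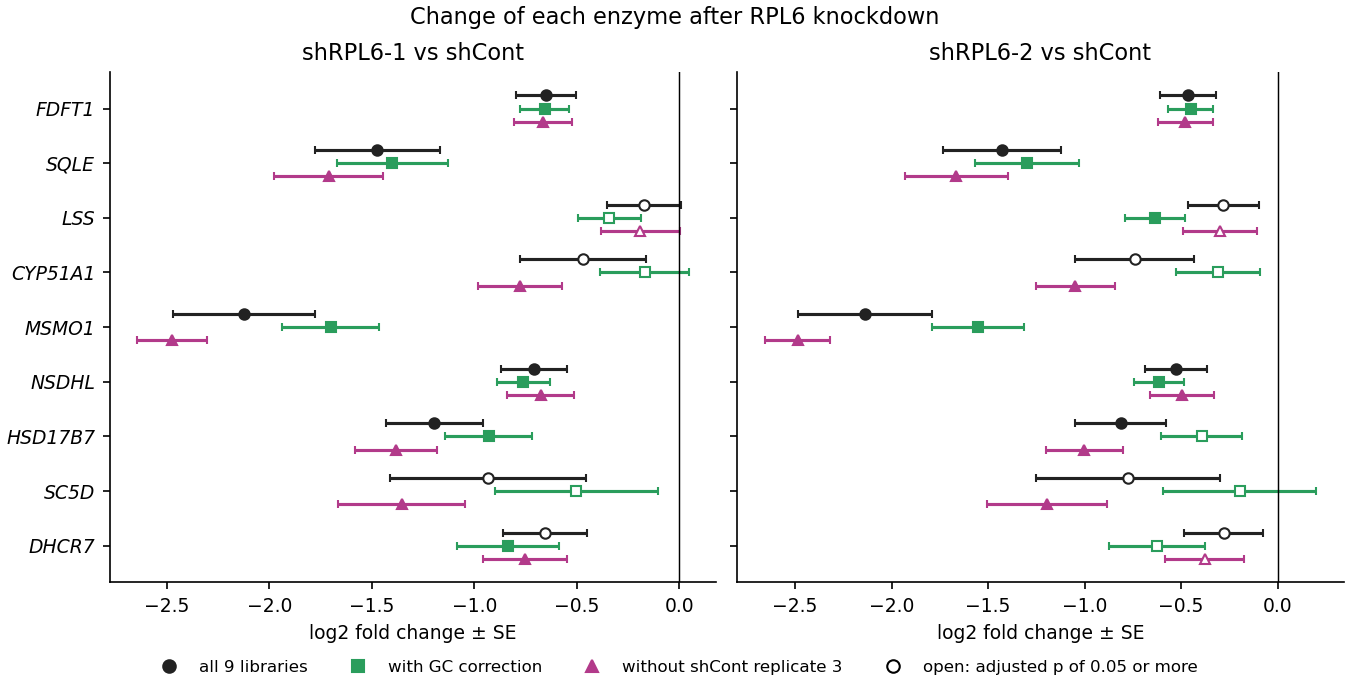
Log2 fold change ± SE of the 9 enzymes in pathway order (vertical axis) for shRPL6-1 and shRPL6-2 against shCont, over all 9 libraries, with the GC correction and without shCont replicate 3. Filled symbols have an adjusted p under 0.05. All points lie below 0, MSMO1 lies farthest from it, and CYP51A1 and SC5D are filled only without shCont replicate 3.

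The shift of shCont replicate 3 followed base composition among the enzymes too. The replicate was the lowest of the shCont libraries for 6 of the 9. SC5D, with a transcript GC content of 38.6%, stood there at 23.3% of the mean of shCont replicates 1 and 2, and MSMO1, at 38.1% GC, stood at 34.7%. CYP51A1 (41.5% GC) and HSD17B7 (41.7% GC) stood at 41.6% and 62.3%. At the other end, NSDHL (50.5% GC) stood at 106%, FDFT1 (48.6% GC) at 96.1% and LSS (58.3% GC) at 95.3%. DHCR7, also at 58.3% GC, went against this order at 79.1%, and so did SQLE, which at 46.5% GC stood at 53.7%, below HSD17B7. Spearman's rho between transcript GC content and the log2 ratio was 0.82 over the 9 enzymes, as a description, and 0.63 over 15996 tested genes; all points share these 3 libraries. After each library was corrected for its trend with GC content, MSMO1, SQLE, NSDHL and FDFT1 remained called lower with both hairpins. HSD17B7 then had a log2 fold change of -0.39 ± 0.21 with shRPL6-2 (edgeR adjusted p = 0.191) and kept its call with shRPL6-1. The changes of CYP51A1 shrank to -0.17 ± 0.22 with shRPL6-1 and -0.31 ± 0.22 with shRPL6-2, and those of SC5D to -0.50 ± 0.40 and -0.20 ± 0.40, none called. In the same fit DHCR7 was called lower with shRPL6-1 at -0.83 ± 0.25 (edgeR adjusted p = 0.0478), and LSS with shRPL6-2 at -0.64 ± 0.15 (edgeR adjusted p = 0.0156).

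**Figure D3:**
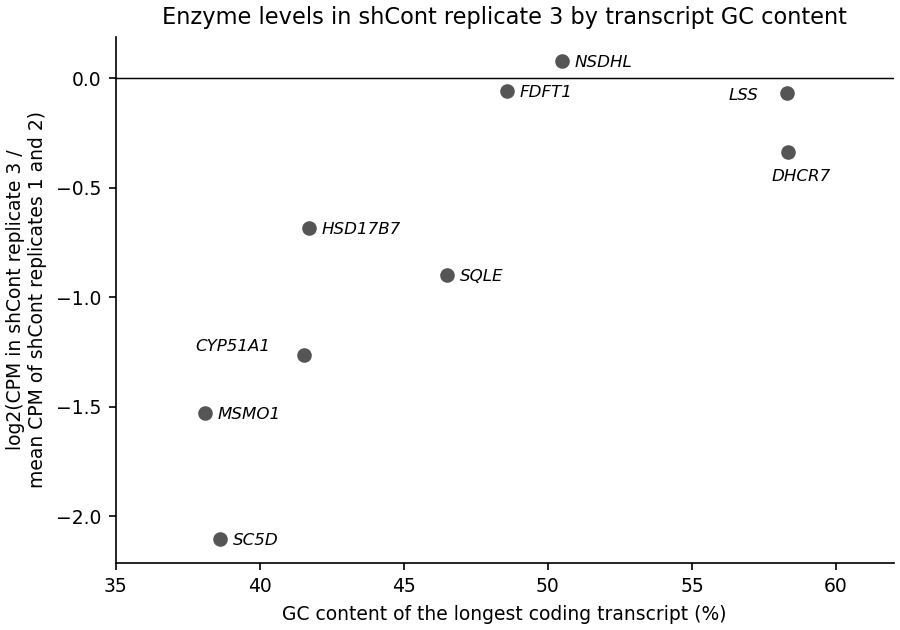
Log2 ratio of the CPM in shCont replicate 3 to the mean of shCont replicates 1 and 2 (vertical axis) against the GC content of the longest coding transcript in percent (horizontal axis), 1 point for each of the 9 enzymes. The 5 enzymes of lowest GC content lie farthest below 0, down to -2.10 for SC5D.

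**Figure D4:**
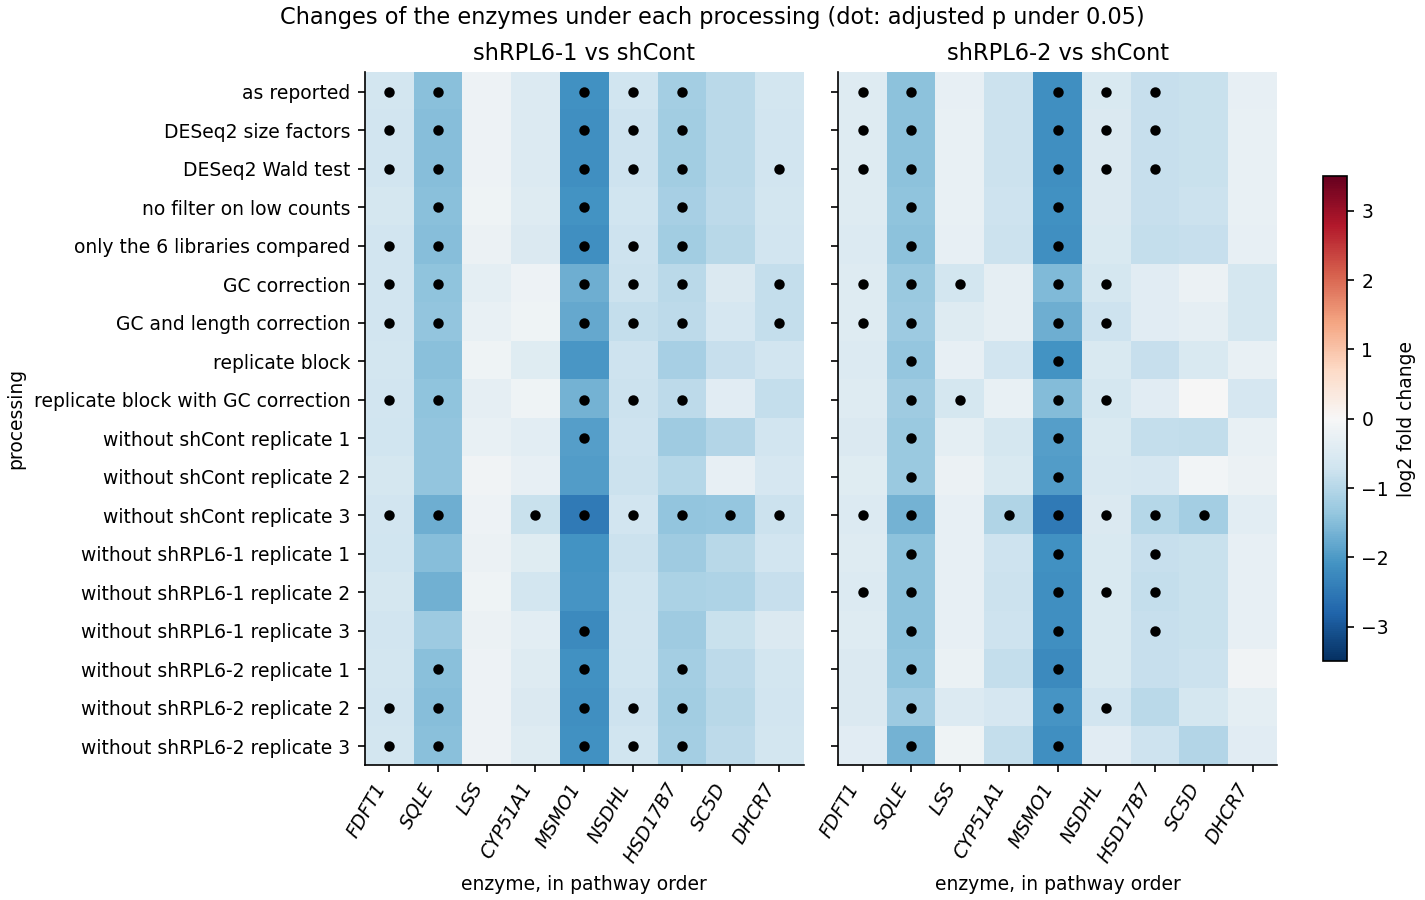
Log2 fold change (colour) of the 9 enzymes (columns) with shRPL6-1 and shRPL6-2 against shCont under each processing (vertical axis); a dot marks an adjusted p under 0.05. Every cell lies below 0. MSMO1 and SQLE have a dot for shRPL6-2 under every processing shown, and LSS has a dot only for shRPL6-2 with the GC correction, with or without the replicate block.

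The second question was whether the hairpins differed from each other. None of the 9 enzymes was called between shRPL6-2 and shRPL6-1, where 0.316% of tested genes were called lower and 0.0681% higher. At an unadjusted p under 0.05 the count was also 0, and DESeq2 called 0. For MSMO1 the log2 fold change of shRPL6-2 against shRPL6-1 was -0.01, with a 95% interval of -0.77 to 0.74. For SQLE it was 0.05 (-0.62 to 0.72). HSD17B7 and DHCR7 had the largest differences, 0.38 (-0.14 to 0.90) and 0.38 (-0.07 to 0.83), both higher with shRPL6-2. HSD17B7 was also the single one of the 9 whose libraries did not overlap between the hairpins. The share of all tested genes without such overlap was not computed, so nothing is drawn from this. The interval of each enzyme reached 0.50 or more in at least 1 direction, so a difference of that size is not excluded.

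Levels were compared between enzymes only per length. The deposited FPKM values divide by a gene length of 2.83 to 16.8 kb, longer in each case than the longest coding transcript (1.93 to 4.94 kb), so a second scale divided CPM by transcript length. NSDHL was highest and LSS lowest in shCont on both scales, at 31.1 ± 1.24 and 1.69 ± 0.21 FPKM (mean ± SD, n = 3). CYP51A1 was next to NSDHL by FPKM, at 22.9 ± 10.5, but its spread reached that of MSMO1 at 12.7 ± 6.59 and DHCR7 at 10.5 ± 2.03. Per kb of transcript DHCR7 came second at 33.2 ± 4.56 CPM per kb, followed by CYP51A1 at 31.4 ± 13.2 and FDFT1 at 31.0 ± 1.70, whose ranges overlapped. HSD17B7, at 2.87 ± 0.97 FPKM, and SC5D, at 2.10 ± 1.57 FPKM, were next above LSS by FPKM. Per kb of transcript their order turned over, with HSD17B7 at 7.54 ± 2.19 and SC5D at 12.3 ± 8.89 CPM per kb, the latter level with SQLE at 12.5 ± 3.96. With the hairpins MSMO1 dropped from 24.2 ± 11.7 to 5.55 ± 0.76 (shRPL6-1) and 5.49 ± 0.66 (shRPL6-2) CPM per kb, near the level of LSS at 4.61 ± 0.27 and 4.28 ± 0.88.

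**Figure D5:**
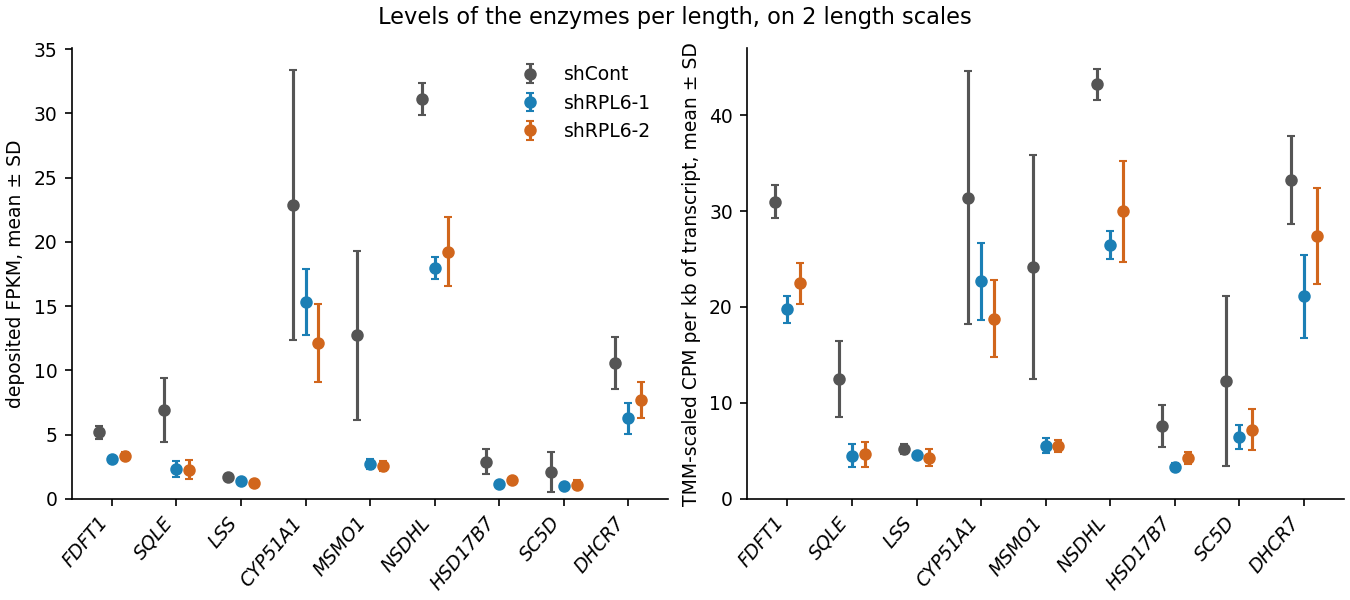
Mean level ± SD (n = 3 libraries) of the 9 enzymes in shCont, shRPL6-1 and shRPL6-2 per length, as deposited FPKM on the left and as TMM-scaled CPM per kb of the longest coding transcript on the right. NSDHL is highest in shCont on both scales at 31.1 FPKM and 43.2 CPM per kb, and the order of CYP51A1, MSMO1, DHCR7 and FDFT1 depends on the scale.

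The enzymes varied together across the libraries. On the scale of log2(CPM + 1), Pearson's r was above 0 for 36 of 36 pairs of enzymes over the 9 libraries, from 0.14 (LSS and SC5D) to 0.96 (FDFT1 and NSDHL), with a median of 0.65. The median r of each enzyme to other protein-coding genes lay near 0, between -0.01 and 0.05. All pairs share libraries and the group difference, so these are descriptions. After the GC correction 27 of 36 pairs were above 0, with a median of 0.52. The median r to the other enzymes was then 0.63 for FDFT1, 0.66 for MSMO1 and 0.63 for NSDHL. It was lower for HSD17B7 at 0.21, CYP51A1 at -0.09 and SC5D at 0.02, against 0.75, 0.50 and 0.61 before the correction. CYP51A1 and SC5D still varied with each other, at r = 0.73. Among the genes outside the list most like MSMO1, of 11730 searched, were HMGCS1, RCN2, RECQL and SRP54 (each r = 0.99). After the GC correction r was 0.90 for HMGCS1, 0.90 for RECQL and 0.95 for SRP54, but 0.10 for RCN2.

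Promoter sequence is shown for enzymes that fell with both hairpins and, chosen after its values were seen, for CYP51A1, which did not pass the test. RefSeq windows (GRCh38.p14, 250 bases before to 50 after a start site, the strand of the gene) matched 7 of the 9 enzymes in 9 windows; none matched for FDFT1 and SQLE. Capitals mark CCAAT, the core of sites for NF-Y, a factor that acts beside SREBP-2, on either strand (ATTGG is the reverse). The windows are chr4:165327419-165327718 (plus strand) for MSMO1, chrX:152830813-152831112 (plus) for NSDHL, chr1:162790452-162790751 (plus) for HSD17B7 and chr7:92134428-92134727 (minus) for CYP51A1.
MSMO1: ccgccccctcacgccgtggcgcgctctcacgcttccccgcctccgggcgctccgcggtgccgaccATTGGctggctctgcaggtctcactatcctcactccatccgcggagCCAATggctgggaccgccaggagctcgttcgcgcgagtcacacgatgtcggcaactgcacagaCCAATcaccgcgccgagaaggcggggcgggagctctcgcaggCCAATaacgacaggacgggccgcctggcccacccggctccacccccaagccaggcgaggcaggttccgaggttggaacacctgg
NSDHL: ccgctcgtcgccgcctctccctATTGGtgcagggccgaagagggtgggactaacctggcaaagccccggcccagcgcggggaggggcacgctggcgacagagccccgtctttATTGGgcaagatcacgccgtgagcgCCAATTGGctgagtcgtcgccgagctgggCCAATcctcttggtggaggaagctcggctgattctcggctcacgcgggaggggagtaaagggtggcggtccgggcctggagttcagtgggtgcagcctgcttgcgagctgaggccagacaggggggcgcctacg
HSD17B7: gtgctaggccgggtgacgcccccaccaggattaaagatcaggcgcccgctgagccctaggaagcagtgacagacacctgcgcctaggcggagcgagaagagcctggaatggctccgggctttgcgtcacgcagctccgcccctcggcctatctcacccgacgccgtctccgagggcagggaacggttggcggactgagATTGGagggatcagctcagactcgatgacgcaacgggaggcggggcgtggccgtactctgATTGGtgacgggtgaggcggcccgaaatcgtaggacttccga
CYP51A1: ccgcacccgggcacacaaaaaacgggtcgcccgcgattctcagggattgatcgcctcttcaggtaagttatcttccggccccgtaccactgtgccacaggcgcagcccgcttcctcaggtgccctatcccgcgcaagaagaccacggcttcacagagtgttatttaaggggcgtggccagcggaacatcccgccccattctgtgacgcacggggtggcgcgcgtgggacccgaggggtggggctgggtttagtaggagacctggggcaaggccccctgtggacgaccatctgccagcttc
CCAAT was found 4 times in the MSMO1 window, 5 times in that of NSDHL, where 2 matches overlap in CCAATTGG, 2 times in that of HSD17B7 and in no place in that of CYP51A1. Of 35095 windows of the same length, 34.6% held it at least once, 10.7% at least 2 times and 0.986% at least 4 times. It was in 7 of the 9 windows of the enzymes, those of LSS and SC5D and 1 of DHCR7, which had no call, among them. That DHCR7 window held it 2 times, as the HSD17B7 window did, and the LSS and SC5D windows 1 time each. The CYP51A1 window ends at base 92134727, short of the listed gene start at 92134803, so sequence before that start was not searched. Whether CCAAT number goes with the calls was not tested. The share over windows of tested genes was 34.6% too. The letters TCACNCCAC, a form of the sterol response element bound by SREBP-2, were in 0 of the 9 windows on either strand and in 1.13% of all windows. GGGCGG, bound by Sp1, was in 7 of the 9 windows, in 44.9% of all windows and in 65.3% of the 15605 windows of tested genes. CANNTG, an E-box, which reads the same on both strands, was in 8 of the 9, in 68.7% of all windows and in 61.9% of those of tested genes. A match describes letters only.

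Other genes of the pathway and its regulation were taken from lists. Of all tested genes, 4.07% were called lower and 4.44% higher with shRPL6-1, and 14.6% and 13.3% with shRPL6-2. Of 7 enzymes upstream of squalene, 2 were called lower with shRPL6-1 and 2 lower and 1 higher with shRPL6-2, with medians of -0.47 and -0.19. HMGCS1, which makes HMG-CoA, was at 197, 205 and 102 CPM in shCont, 62.6 to 70.2 CPM with shRPL6-1 and 59.9 to 78.7 CPM with shRPL6-2. IDI1, the isomerase of isopentenyl diphosphate, fell too, to 34.4% of shCont with shRPL6-1 and 28.3% with shRPL6-2. With 1 library left out, the shRPL6-1 call held in 4 of 9 fits for HMGCS1 and 5 of 9 for IDI1. The shRPL6-2 call held in 9 of 9 for each. PMVK, the kinase that phosphorylates phosphomevalonate, went the other way, with log2 fold changes of 0.72 (edgeR adjusted p = 0.0749) and 1.22 (edgeR adjusted p = 0.00683). A further 3 enzymes acting after squalene were followed, of which 0 were called with shRPL6-1 and 1 with shRPL6-2. LBR, a sterol reductase that is also a receptor of the nuclear lamina, had log2 fold changes of -0.78 (edgeR adjusted p = 0.0926) and -0.94 (edgeR adjusted p = 0.0282), the latter -0.43 (edgeR adjusted p = 0.133) with the GC correction. TM7SF2, the reductase for the same step, and EBP, an isomerase, were not called, at -0.25 and -0.35 with shRPL6-1 and -0.20 and -0.16 with shRPL6-2.

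Of 5 genes listed as redox partners (POR, CYB5A, CYB5B, CYB5R3 and PGRMC1), 0 were called with either hairpin, and their log2 fold changes ran from -0.44 to 0.16. Of 7 sterol regulators, 1 was called lower with shRPL6-1 and 4 with shRPL6-2, and none higher. Beside both lists stand all tested genes, of which 4.07% were called lower and 4.44% higher with shRPL6-1, and 14.6% and 13.3% with shRPL6-2. INSIG1, which holds the SREBP escort in the endoplasmic reticulum and is itself a target of SREBP, was the one called with both. Its log2 fold change was -1.29 ± 0.24 (SE, edgeR adjusted p = 0.0146) and -1.35 ± 0.24 (edgeR adjusted p = 0.00547). With 1 library left out, INSIG1 was called in 4 of 9 fits with shRPL6-1 and in 9 of 9 with shRPL6-2. MBTPS2, a protease that frees SREBP, MARCHF6, a ubiquitin ligase that marks SQLE for degradation, and INSIG2, a relative of INSIG1, were called lower with shRPL6-2, at -1.09, -0.96 and -1.15. Their values with shRPL6-1, not called, were -0.54, -0.71 and -0.79. With the GC correction the shRPL6-2 values were -0.51 (edgeR adjusted p = 0.0216), -0.49 (edgeR adjusted p = 0.0564) and -0.56 (edgeR adjusted p = 0.122), so MARCHF6 and INSIG2 lost the call. Not called with either hairpin were SREBF2, which encodes SREBP-2, at -0.31 and -0.13, SCAP at 0.27 and 0.45, and MBTPS1 at -0.28 and -0.27. The paper reports that changing RPL6 left SREBP2 expression and processing unaltered in HCC cells, by qRT-PCR and western blot. The difference between hairpins was called in none of the 7 regulators.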

How the data were processed

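Poly-A selected, paired-end RNA libraries of MHCC97H cells were sequenced in 3 groups of 3. The authors deposited whole-number counts and FPKM per gene, 1 column of each per library, matched here to the libraries by group and replicate number. Submitters' processing notes name CASAVA 1.8, HISAT2, StringTie, edgeR and the GRCh38 build. The annotation and the use of strand in counting are not stated in any source used here; overlapping antisense genes therefore cannot be told apart. The deposited FPKM were proportional to counts over gene length and library total. They were used for levels only.

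Counts were tested with edgeR 4.0.16 (R 4.3.3) in a quasi-likelihood fit of all 9 libraries with TMM scaling, after its low-count filter, which kept 16146 of 32426 genes with any count, all 9 enzymes among them. Adjusted p-values (Benjamini-Hochberg) run over all tested genes, with 0.05 as the threshold. SE is the size of the log2 fold change over the root of F. The biological coefficient of variation was 0.24. Alternatives were DESeq2 1.42.0, no filter, only the 6 libraries compared, offsets for transcript GC content and length (GENCODE v29 longest coding transcript, lowess span 0.3), a replicate block, each library left out, and a call at unadjusted p under 0.05 with a log2 fold change beyond 1. After seeing the data, counts of near copies were added and levels were divided by transcript length. Scripts were tested on simulated data. Named were the 9 enzymes, RPL6, TM7SF2, LBR, EBP, genes among the 5 most like MSMO1 and up to 4 called genes of each list. Some genes of this rule and of the lists are not reported here. The enzymes and lists were chosen with earlier results of these data known. Replicates of every group differed by more than sampling noise. Each value rests on 1 cell line, and intervals cover the spread of 3 libraries a group.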

Additional observations from a re-analysis of the deposited data

How the results depend on the processing

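The 9 enzymes had negative log2 fold changes with both hairpins under all alternatives run. The main counts were 5 called with shRPL6-1, 5 with shRPL6-2, 5 with both and 0 between hairpins, and over all genes 1374, 4499, 1145 and 62. Without the filter on low counts, 3, 2 and 2 enzymes were called with shRPL6-1, shRPL6-2 and both. The gene counts were then 623, 3057 and 509, and 39 between hairpins. At the limits of the study the enzyme counts were 3, 2 and 2. The gene counts were 1149 with shRPL6-1, 2194 with shRPL6-2, 756 with both and 348 between hairpins. With only the 6 libraries compared, 2 enzymes were called with shRPL6-2 and 2 with both, and 839, 2825 and 611 genes with shRPL6-1, shRPL6-2 and both. DESeq2's Wald test called 2534 genes with shRPL6-1, 2088 with both and 309 between hairpins. The GC correction gave 2494, 1904 and 188, and the GC and length correction 2530, 1851 and 177. Leaving out each library gave 0 to 8 enzymes with shRPL6-1, 2 to 7 with shRPL6-2, 0 to 7 with both and 0 between hairpins, and 99 to 4783, 1378 to 7201, 76 to 4260 and 8 to 194 genes. The cause of these shifts was not tested.

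Libraries with the same replicate number did not deviate together: of 9 such pairs across groups, 1 had a correlation over 0.1 (range -0.47 to 0.25), so the numbers were not taken to pair libraries. With the replicate block, 0 enzymes were called with shRPL6-1, 2 with shRPL6-2 and 0 with both, and 32, 2099, 23 and 5 genes with shRPL6-1, shRPL6-2, both and between hairpins. With the replicate block and the GC correction, the shRPL6-2 value of SC5D was -0.026. In that fit 3 enzymes and 878 genes were called with both, 2771 genes with shRPL6-2 and 37 between hairpins.

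Changes of sign were limited to values near 0. EBP with shRPL6-2 ran from -0.37 to 0.055 over left-out libraries. Between hairpins, MSMO1 was 0.0045 with DESeq2 size factors, 0.0041 with the Wald test, 0.15 with the GC correction, 0.086 with GC and length and 0.14 with block and GC. Over left-out libraries the difference ran from -0.10 to 0.10 for MSMO1, -0.17 to 0.24 for SQLE, -0.27 to 0.011 for LSS and -0.087 to 0.35 for SC5D.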
